A study of Mus musculus with 95 samples.

Results

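Lungs of C57BL/6 mice after 41 days of exposure to Pneumocystis murina were compared with lungs of mice of the same experiment after 34 days of exposure. The 20 arrays, 10 for each day, were chosen by their labels (strain, days and exposure) out of 95 arrays in all. Each array holds the RNA of the lung homogenate of 1 mouse. The mice were females, with an age of 8 weeks in the labels, kept in a cage with a heavily infected seeder mouse. Per the design text, the experiment had 3 cages of 10 mice, of which 2 were exposed and 1 was not, and 5 mice of each cage were taken on each day. The 10 exposed mice of a day therefore come from 2 cages; the cage of each mouse is not stated, and the tests treat mice as independent. The unexposed mice of the same experiment, 5 at day 41 and 5 at day 34, had the same strain, sex and age and no seeder mouse. Their change between the days is given beside that of the exposed mice; tissue transcripts and RNA quality also differed between their days. The comparison asks how the response of immunocompetent mice to the fungus moved over 1 week, and which genes varied together among mice of 1 day.

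Pneumocystis murina is a fungus that lives on the surface of mouse alveoli and cannot be grown in routine culture. Mice with working CD4+ T cells clear it: T cells activate macrophages through interferon-gamma and help B cells, which give rise to plasma cells that secrete antibody. IgA, the main antibody of mucosal surfaces, leaves plasma cells as chains joined by the J chain and is carried across the epithelium by the polymeric immunoglobulin receptor. Goblet cells of the airway make mucus and are induced by type 2 cytokines.

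Levels below are log2(intensity + 8) of the brightest probe set of a gene, given as the lowest, median and highest mouse of a group. A change is the mean of day 41 minus the mean of day 34 in exposed mice, ± its standard error, with limma's p adjusted by the Benjamini-Hochberg method over 8251 genes and a threshold of 0.05. The offset of 8 makes changes of dim genes look smaller than they are. Levels of different genes are not comparable, since each has its own probes.

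The median intensity of the 30 arrays of the experiment lay between 40.8 and 46.3. The surfactant genes Sftpb and Sftpc, the club cell gene Scgb1a1 and the alveolar type 1 cell gene Ager were above the array's median gene on 20 of 20 arrays, whereas the probe set of Sftpd was below it on all 20. Transcripts of squamous epithelium, a tissue that lung does not normally hold, were present on 0 of 10 arrays of exposed day 41 and on 3 of 10 of exposed day 34 (mice 1, 6 and 8), and on 0 of 5 arrays of unexposed day 41 and 4 of 5 of unexposed day 34. The summed intensity of 17 squamous genes ranged from 770.9 to 900.0 in exposed day 41 mice, against 707.2 to 10087.6 in exposed day 34 mice. Skeletal muscle transcripts, 21 genes, summed to 705.5 to 5808.1 at day 41, against 870.0 to 9362.7 at day 34. Heart muscle transcripts, 12 genes, summed to 1051.9 to 5328.2 at day 41 (median 1909.7), against 1003.4 to 10479.9 at day 34 (median 5255.6). The Gapdh control signal at the 3' end over that at the 5' end, which rises as RNA degrades, was 0.909 to 1.125 at day 41, against 0.897 to 3.022 at day 34, where mice 2 and 7 exceeded 2, and it was above 2 on 0 of 5 arrays of unexposed day 41 and 3 of 5 of unexposed day 34. These features move with the day. Their part in the results was not tested beyond fits with their scores or the Gapdh ratio as covariates, or without the arrays concerned. For heart muscle only the covariate was run, and no arrays were left out.

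Of the 8251 genes, 76 (0.921%) passed between day 41 and day 34 of exposure. The 29 that were higher at day 41 (0.351%) were led by antibody genes, and the 47 that were lower (0.57%) included chemokines, acute-phase genes, interferon-inducible GTPases, goblet cell genes and genes of mitosis. The median change of all genes was 0.020. At an unadjusted p under 0.05 there were 973 genes. The exposed mice of the 2 days did not overlap for 2 genes that were higher at day 41 (0.0242% of all genes), Ighv1-54 and Cirbp, and for 4 that were lower (0.0485%), Ccl2, Ccl7, Cxcl9 and Gm9706. Without the arrays that held squamous transcripts, 3 of exposed day 34 and 4 of unexposed day 34, 38 genes passed. Without every array with squamous or skeletal muscle transcripts 16 passed. Leaving out 1 exposed mouse at a time, 36 of the 76 genes passed every time, and 0 of the 76 changed direction under any of the alternatives run.

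**Figure D1:**
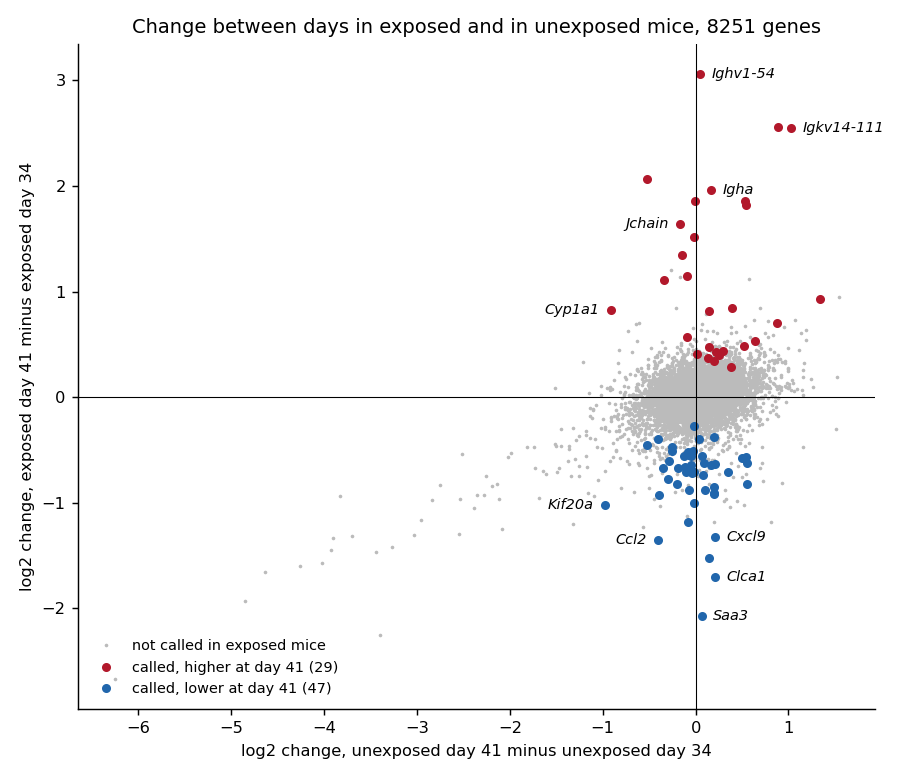
Change between days for 8251 genes: the horizontal axis is the mean of unexposed day 41 minus unexposed day 34 and the vertical axis the mean of exposed day 41 minus exposed day 34, both in log2(intensity + 8). The 29 genes that passed as higher in exposed mice are red and the 47 that passed as lower are blue; most of them lie near 0 on the horizontal axis, and the grey tail at the lower left holds genes that were lower at day 41 with and without exposure and did not pass in exposed mice.

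Antibody transcripts were higher at day 41. Of 20 immunoglobulin variable segments measured, 11 passed as higher, 0 as lower, and all 20 changes were above 0, with a median change of 1.15 against 0.020 over all genes and 0.019 for the same segments between the unexposed days. Of 18 genes of the immunoglobulin and plasma cell list, 4 passed, all higher: Ighv1-54, Igha, Jchain and Ighm. In bulk tissue, more cells of a type and more RNA per cell cannot be told apart.

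Ighv1-54, a heavy chain variable segment, stood at 8.85, 9.35 and 10.14 in day 41 mice, against 5.18, 6.07 and 8.84 in day 34 mice. The lowest day 41 mouse lay just above the highest day 34 mouse, and the unexposed mice, at 5.09 to 7.25 on day 41 and 5.52 to 6.46 on day 34, covered the same range as most day 34 mice. Its change of 3.06 ± 0.33 (adjusted p = 1.35e-06) corresponds to 8.34-fold on this scale and passed under every alternative.

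Igha, the heavy chain constant region of IgA, was at 9.87, 10.77 and 11.65 in day 41 mice, against 8.09, 8.73 and 10.78 in day 34 mice. One day 34 mouse, number 10, reached the day 41 range, and the other 9 lay below all day 41 mice. The change was 1.96 ± 0.27 (adjusted p = 4.65e-05), or 3.90-fold, and its other 2 probe sets, of which the smaller change was 0.99, passed too. Without the day 34 arrays with squamous transcripts the change was 1.77 (adjusted p = 0.00559). Jchain, which joins IgA and IgM into polymers, was at 8.57, 8.87 and 9.54 in day 41 mice, against 6.13, 6.89 and 9.07 in day 34 mice, a change of 1.64 ± 0.31 (adjusted p = 0.00438). Its day 41 mice were closely spaced, whereas the day 34 mice spread from the level of unexposed mice up into the day 41 range. Without arrays with squamous or skeletal muscle transcripts the change of Jchain was 1.45 and did not pass (adjusted p = 0.0945).

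Among light chain segments, Igkv9-120 changed by 2.56 ± 0.35 (adjusted p = 4.65e-05), Igkv14-111 by 2.55 ± 0.27 (adjusted p = 1.35e-06) and Igkv6-14 by 2.06 ± 0.38 (adjusted p = 0.00340). Between the unexposed days these segments changed by 0.89, 1.03 and -0.52, in that order, and did not pass. The difference between exposed and unexposed changes did not pass by limma either (adjusted p = 0.295, 0.232 and 0.129). Dimmer probe sets of the same segments did not pass, with changes of 0.36 and 0.30 for Igkv9-120, 0.53 and 1.05 for Igkv14-111 and 0.15 for Igkv6-14. Igkv14-111 was at 8.07, 9.30 and 10.07 in day 41 mice, against 5.98, 6.54 and 8.59 in day 34 mice, where mouse 10 was again the highest. Many of these probe sets are of the kind designed for families of similar sequences, so the signal may come from several segments and the name of a single segment is uncertain. Ighm, the heavy chain of IgM, was at 9.73, 10.71 and 11.72 in day 41 mice, against 8.91, 9.39 and 10.81 in day 34 mice (change 1.11 ± 0.27, adjusted p = 0.0385). The groups overlap, and the call of Ighm ended without any 1 of 13 of the 20 mice. Its 15 other probe sets disagreed: 7 passed as higher in the fit of all probe sets, with changes of up to 2.87, and 8 did not pass, among them the second one at 0.21 (adjusted p = 0.654). Adck1, a gene named for a kinase of mitochondria, was measured by a probe set of the same family kind and changed by 1.86 ± 0.34 (adjusted p = 0.00337), while 2 further probe sets of Adck1 changed by 0.72 and 1.20 and did not pass.

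Igk, the kappa light chain locus, was dim and passed as higher (change 0.81 ± 0.15, adjusted p = 0.00337). Its second probe set changed by 0.16 and did not pass. Some other genes of antibody-secreting cells did not pass. Xbp1, a transcription factor of plasma cells, changed by 0.12 ± 0.10 (adjusted p = 0.719), Prdm1, another such factor, by 0.049 ± 0.15 (adjusted p = 0.955), and Sdc1, a plasma cell surface marker, by 0.18 ± 0.085 (adjusted p = 0.402). Pigr, the receptor that carries IgA across epithelium, changed by -0.53 ± 0.15 (adjusted p = 0.10). Of 22 B cell genes 0 passed by limma and 4 were at an unadjusted p under 0.05, 3 of them higher, with a median change of 0.12.

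**Figure D2:**
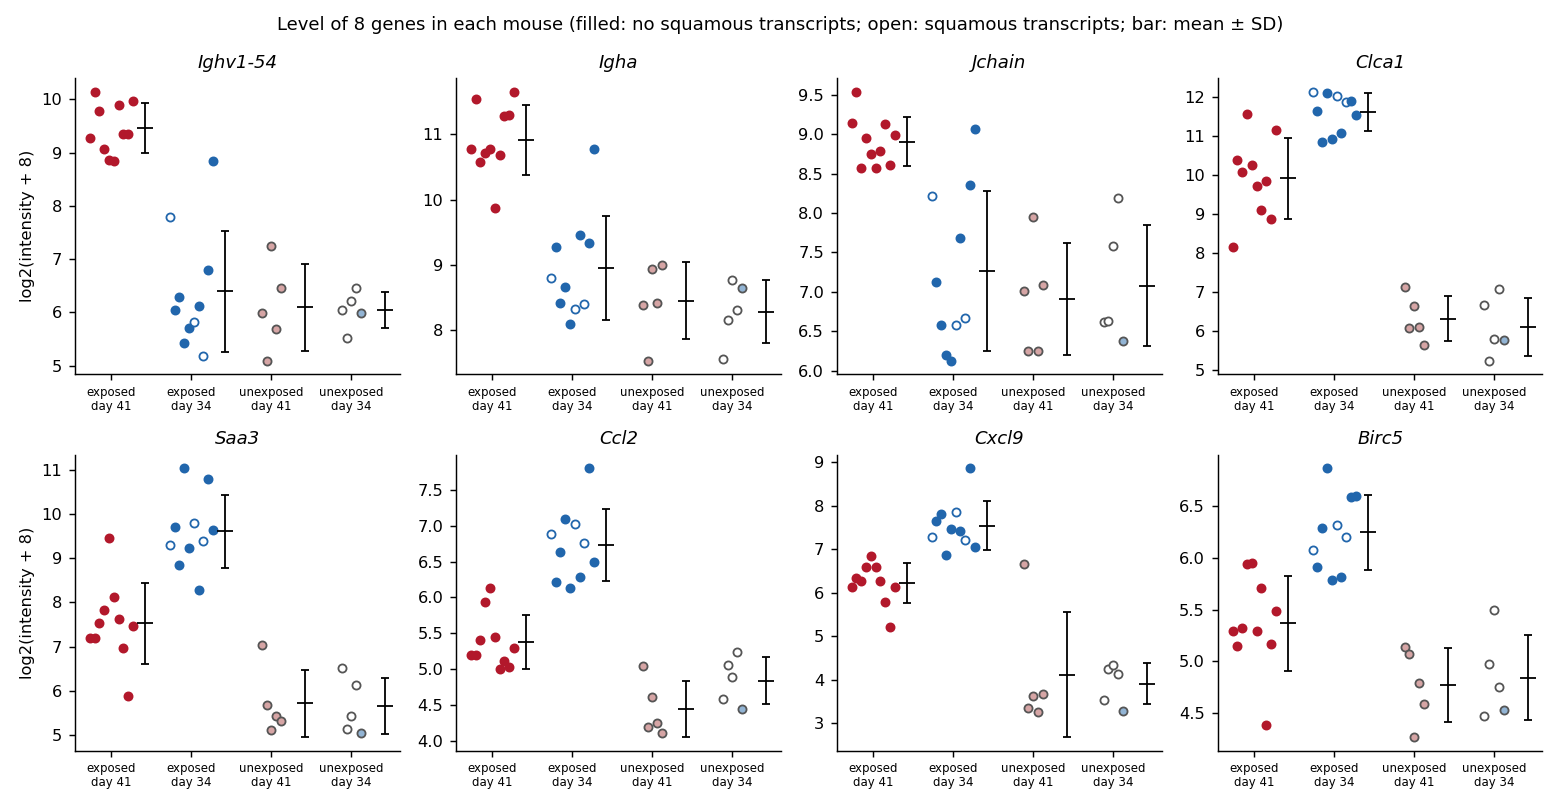
Level of 8 genes in each mouse as log2(intensity + 8), with exposed day 41, exposed day 34, unexposed day 41 and unexposed day 34 from left to right; each point is 1 mouse, open points are arrays with squamous transcripts, and bars give the mean ± SD. The 3 antibody genes are high in all exposed day 41 mice and spread widely at exposed day 34, whereas Clca1, Saa3, Ccl2, Cxcl9 and Birc5 are lower at exposed day 41 than at exposed day 34; only for Clca1 among the 8 genes does every exposed mouse of both days lie above every unexposed mouse.

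Chemokines and acute-phase genes were lower at day 41. Of 26 genes of the monocyte, neutrophil and acute-phase list, 6 passed, all lower (Ccl2, Ccl7, Ccl8, Ccl12, Saa3 and Serpina3n), with a median change of -0.30 for the list. Ccl2, the main attractant of inflammatory monocytes, was at 5.01, 5.25 and 6.13 in day 41 mice, against 6.13, 6.69 and 7.80 in day 34 mice. The highest day 41 mouse and the lowest day 34 mouse lay side by side without crossing. Its change was -1.36 ± 0.18 (adjusted p = 3.56e-05), or 0.391-fold.

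Ccl7, which binds the same receptor as Ccl2, was at 3.68, 4.13 and 4.39 in day 41 mice, against 4.54, 5.28 and 6.03 in day 34 mice (change -1.18 ± 0.16, adjusted p = 3.56e-05). The 2 groups did not overlap, and the unexposed mice, at 3.16 to 4.03 on day 41 and 3.37 to 4.04 on day 34, lay close to the day 41 exposed mice. Ccl2 passed under every alternative. Ccl7 passed under every alternative that tested it, since the filter on dim genes left it out. Ccl12, a further ligand of that receptor in mice, changed by -0.93 ± 0.21 (adjusted p = 0.0200), and its call ended without day 34 mouse 9. Ccl8, a CC chemokine, changed by -0.87 ± 0.21 (adjusted p = 0.0307), and its call ended without any 1 of 10 mice.

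Saa3, an acute-phase protein made in inflamed tissue, had the largest fall of the 47: it was at 5.87, 7.50 and 9.46 in day 41 mice, against 8.29, 9.51 and 11.03 in day 34 mice. Only the highest day 41 mouse reached the range of day 34, and day 41 mice still lay mostly above the 5.11 to 7.03 of unexposed day 41 mice. The change was -2.08 ± 0.34 (adjusted p = 0.000948), or 0.237-fold, and without the arrays with squamous transcripts it was -2.12 (adjusted p = 0.0148). Serpina3n, an acute-phase inhibitor of proteases, changed by -0.57 ± 0.12 (adjusted p = 0.0115). Cp, the copper-carrying acute-phase protein ceruloplasmin, changed by -0.71 ± 0.13 (adjusted p = 0.00340).

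Neutrophil genes of the same list did not pass: S100a8 changed by 0.22 ± 0.23 (adjusted p = 0.798) and Mpo by -0.025 ± 0.13 (adjusted p = 0.974). Without the arrays with squamous transcripts, 4 of the 26 genes passed as lower, and the median change was -0.34. The call of Serpina3n ended in that setting (change -0.55, adjusted p = 0.0626). Without arrays with squamous or skeletal muscle transcripts the calls of Saa3 (change -1.89, adjusted p = 0.0749) and Cp (change -0.74, adjusted p = 0.068) ended too.

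Genes induced by interferon-gamma were lower at day 41. Of 28 genes of this list, 10 passed as lower and 0 as higher, and 27 of the 28 changes were below 0, with a median of -0.38 against 0.020 over all genes. Ifng itself, the gene of the cytokine, did not pass (change -0.36 ± 0.15, adjusted p = 0.322) and was dim in both groups, with means of 3.31 and 3.67. Of 17 type I interferon-stimulated genes, 1 passed, Isg15, and all 17 changes were below 0 (median -0.28).

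Cxcl9, a chemokine induced by interferon-gamma that attracts activated T cells through CXCR3, was at 5.22, 6.28 and 6.84 in day 41 mice, against 6.86, 7.44 and 8.86 in day 34 mice. The groups did not overlap, and all unexposed mice lay below both, except mouse 1 of unexposed day 41, which reached 6.67. The change was -1.33 ± 0.31 (adjusted p = 0.0277), or 0.399-fold. Its call ended without day 41 mouse 1, 8 or 9 or without day 34 mouse 6 or 9. Cxcl10, the second ligand of CXCR3, changed by -0.85 ± 0.18 (adjusted p = 0.0108), and Cxcr3, the receptor, by 0.026 ± 0.12 (adjusted p = 0.972).

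Interferon-inducible GTPases, which attack the vacuoles of intracellular microbes, made up several of the 10. Iigp1 was at 7.59, 8.30 and 9.08 in day 41 mice, against 8.51, 9.17 and 10.24 in day 34 mice (change -1.004 ± 0.20, adjusted p = 0.00812). Igtp was at 6.83, 7.33 and 7.95 in day 41 mice, against 7.57, 8.28 and 8.94 in day 34 mice (change -0.83 ± 0.16, adjusted p = 0.00502). In both genes the ranges overlap at the edges, and every day 41 mouse lay below the mean of day 34. Irgm2, of the same family, changed by -0.64 ± 0.15 (adjusted p = 0.0271).

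Il18bp, a secreted inhibitor of interleukin-18, changed by -0.72 ± 0.14 (adjusted p = 0.00679), Psmb8, a subunit of the immunoproteasome, by -0.38 ± 0.088 (adjusted p = 0.0292), and AW112010, an interferon-inducible transcript of macrophages and T cells, by -0.62 ± 0.10 (adjusted p = 0.000788). AW112010 is in none of the lists and passed under every alternative. Without the arrays with squamous transcripts 0 of the 28 listed genes passed by limma, 18 were lower at an unadjusted p under 0.05, as many as with all arrays, and the median change was -0.37. With the replicate number as a block, 4 of the 28 passed.

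The promoters of the called interferon-responsive genes are shown because many hold the same short element. RefSeq's table for GRCm38.p6 had promoters for 10 of the 11 called genes of the 2 interferon lists. Within 250 bases before the start, on either strand, the core of the interferon-stimulated response element (GAAA, any 2 bases, GAAA) was found in 6 of the 10 (Isg15, Gbp2, Gbp3, Irgm2, Igtp and Cxcl10), or 60.0%. It was found in 2.98% of all 32851 promoters of the table and in 3.39% of 6576 tested genes. The gamma-activated sequence, TTCNNNGAA, was found in 3 of the 10 (Psmb8, Irgm2 and Igtp), against 7.02% of all promoters and 7.39% of tested genes. A match is a description of these letters and not a site shown to be used. The 10 genes come from lists of interferon-responsive genes, and members that did not pass were not counted. The shares therefore say nothing about the change between days. Igtp and Irgm2, whose stretches below are much alike, count as 2 genes. The 5 stretches of 120 bases below run 5′ to 3′ along the gene, and capitals mark the matches to both elements. They end 1 base before the start, except for Cxcl10, whose stretch begins 250 bases before it. Coordinates are chr11:58199436-58199555 on the plus strand for Igtp, chr11:58214857-58214976 on the plus strand for Irgm2, chr3:142620543-142620662 on the plus strand for Gbp2, chr4:156200819-156200938 on the minus strand for Isg15 and chr5:92349020-92349139 on the minus strand for Cxcl10.
Igtp: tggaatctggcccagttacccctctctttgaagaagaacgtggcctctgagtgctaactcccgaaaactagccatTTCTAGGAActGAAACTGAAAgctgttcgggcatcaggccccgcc
Irgm2: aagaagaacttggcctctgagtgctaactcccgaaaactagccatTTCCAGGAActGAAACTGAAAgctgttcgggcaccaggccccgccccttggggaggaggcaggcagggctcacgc
Gbp2: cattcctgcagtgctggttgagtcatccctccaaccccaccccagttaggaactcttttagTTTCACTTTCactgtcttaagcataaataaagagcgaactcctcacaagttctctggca
Isg15: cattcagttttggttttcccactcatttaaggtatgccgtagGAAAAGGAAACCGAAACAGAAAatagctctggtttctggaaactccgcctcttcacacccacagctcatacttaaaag
Cxcl10: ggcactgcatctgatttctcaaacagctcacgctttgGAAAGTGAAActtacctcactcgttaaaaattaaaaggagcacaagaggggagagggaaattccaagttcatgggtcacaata

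In Igtp and Irgm2, neighbours on chromosome 11, both elements lie within a few bases of each other in the same order. In Isg15, 3 matches overlap in 1 run, and in Gbp2 the match is on the opposite strand. Cxcl9, Il18bp and Ifi47 have no match to either element in this window.

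Some goblet cell genes were lower at day 41. Of 21 genes of the goblet cell and type 2 list, 3 passed, all lower, with a median change of -0.29. Clca1, a protein that goblet cells secrete with mucus, was at 8.16, 9.95 and 11.58 in day 41 mice, against 10.86, 11.75 and 12.14 in day 34 mice. The day 34 mice were tightly grouped at the top, the day 41 mice spread over a wide range with their highest 2 inside it, and all 20 exposed mice lay above the 5.64 to 7.13 of unexposed day 41 mice. The change was -1.70 ± 0.32 (adjusted p = 0.00424), or 0.308-fold, whereas a much dimmer second probe set changed by -0.23 (adjusted p = 0.625).

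Agr2, which folds mucins in goblet cells, was at 3.38, 4.68 and 5.18 in day 41 mice, against 4.76, 6.13 and 7.32 in day 34 mice (change -1.53 ± 0.30, adjusted p = 0.00621). Day 41 mice of Agr2 were level with unexposed mice, whose medians were 4.51 on day 41 and 4.46 on day 34, and 2 further dim probe sets changed by -0.0048 and 0.10. Chia1, an acidic chitinase of the airway, changed by -0.92 ± 0.22 (adjusted p = 0.0307) and Fcgbp, a mucus protein, by -0.91 ± 0.21 (adjusted p = 0.0307). Muc5ac, the main induced mucin of the airway, changed by -1.13 ± 0.30 and did not pass (adjusted p = 0.0577). The type 2 cytokine genes Il13 and Il4 changed by -0.0015 ± 0.088 and -0.023 ± 0.15, both at levels near the floor of the array, and did not pass. Without the arrays with squamous transcripts 0 of the 21 passed by limma and 7 were lower at an unadjusted p under 0.05, with a median change of -0.26 for the list and a change of -1.53 for Clca1 (adjusted p = 0.0603), and the calls of Chia1 and Fcgbp each ended without any 1 of 10 mice.

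Genes of cell division were lower at day 41. Of 44 genes of the cell cycle list, 5 passed, all lower, and 41 changes were below 0, with a median of -0.39. Birc5, a protein of the dividing chromosome's passenger complex, was at 4.38, 5.31 and 5.95 in day 41 mice, against 5.78, 6.24 and 6.87 in day 34 mice (change -0.88 ± 0.17, adjusted p = 0.00621). The ranges overlap narrowly, and the unexposed mice of both days, between 4.27 and 5.49, overlapped with most of the day 41 mice. Kif22, a motor protein of chromosomes in mitosis, changed by -0.71 ± 0.14 (adjusted p = 0.00500).

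Kif20a, a motor protein of the last step of division, changed by -1.02 ± 0.21 (adjusted p = 0.0108), and between the unexposed days by -0.97, which did not pass. A dimmer second probe set of Kif20a changed by -0.57 in exposed mice and did not pass. Mki67, the marker of cycling cells, was at 5.04, 5.65 and 6.504 in day 41 mice, against 5.99, 6.29 and 6.79 in day 34 mice (change -0.66 ± 0.14, adjusted p = 0.0109), and its dimmer probe set changed by 0.081 and did not pass. Smc2, a condensin subunit outside the list, changed by -0.51 ± 0.095 (adjusted p = 0.00340). Without arrays with squamous transcripts 3 of the 44 passed (median -0.40), and without arrays with squamous or skeletal muscle transcripts 0 passed by limma, with 27 lower at an unadjusted p under 0.05 (median -0.39). RefSeq's table held promoters for 4 of the 5 called genes. The CCAAT box, CCAAT on either strand, was found in 3 of the 4, against 33.85% of all promoters and 40.02% of tested genes, and the cell cycle homology region, TTTGAA, in 2 of the 4, against 15.99% and 13.81%. Genes of the list that did not pass were not counted.

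**Figure D3:**
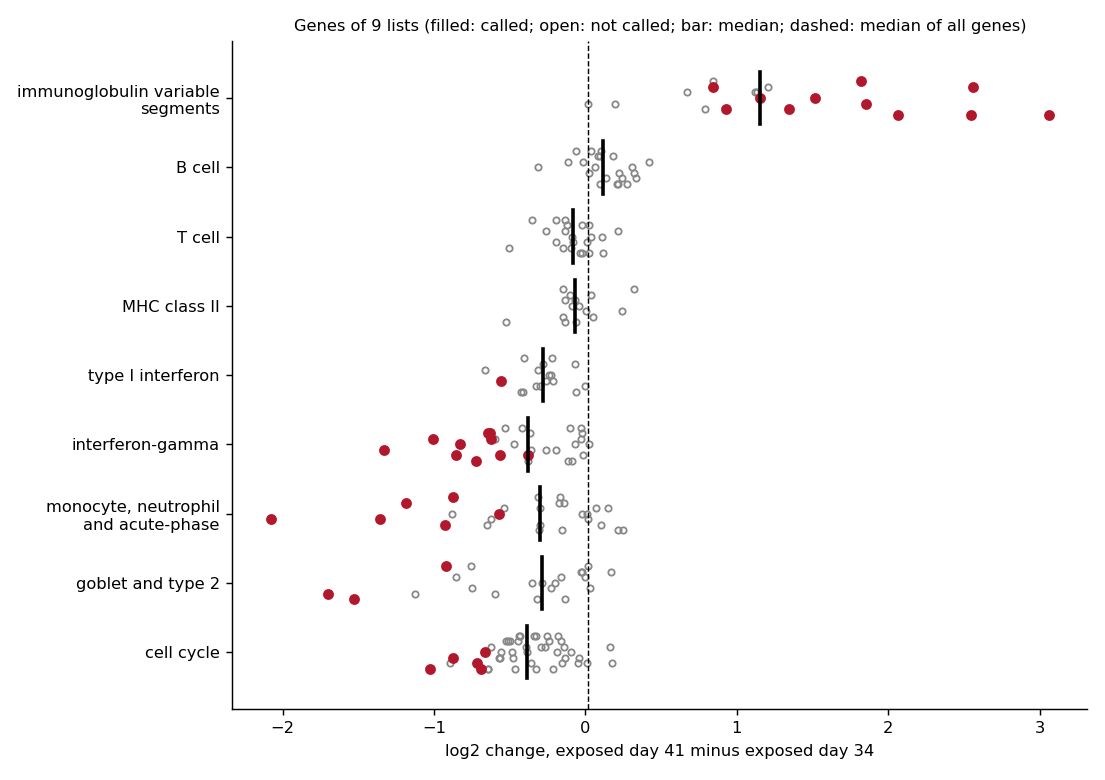
Changes of the measured genes of 9 lists, exposed day 41 minus exposed day 34 in log2(intensity + 8), with 1 point per gene; filled points passed, the solid bar is the median of the list and the dashed line the median of all 8251 genes (0.020). The immunoglobulin variable segments lie to the right, the interferon-gamma, monocyte, goblet and cell cycle lists lie mostly to the left, and the B cell, T cell and MHC class II lists lie around the dashed line with 0 filled points.

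Lists of resident and recruited cells showed few calls. By limma, 0 of 22 T cell genes passed (median -0.084), with 3 at an unadjusted p under 0.05, and 0 of 15 MHC class II genes passed (median -0.068), with 1 at an unadjusted p under 0.05. Among 40 macrophage and monocyte genes 1 passed, Cybb, a subunit of the phagocyte oxidase, which was higher at day 41 by 0.53 ± 0.13 (adjusted p = 0.0497). Between the unexposed days Cybb changed by 0.64, which did not pass by limma (adjusted p = 0.0612). Of 19 cytotoxic genes 1 passed, Gzmb, a granzyme, which was lower by 0.64 (adjusted p = 0.0468). Both calls ended under many alternatives. Cd3e, the T cell receptor subunit, was at 6.17, 6.52 and 6.96 in day 41 mice, against 6.21, 6.71 and 6.87 in day 34 mice, nearly the same range. Of 33 respiratory chain genes 0 passed by limma, although 29 changes were below 0, 14 of them at an unadjusted p under 0.05, with a median of -0.21.

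Among genes outside these groups, Cirbp, an RNA-binding protein induced by cold, was at 7.53, 7.68 and 8.10 in day 41 mice, against 6.65, 6.94 and 7.48 in day 34 mice, without overlap. Its change of 0.71 ± 0.13 (adjusted p = 0.00287) was close to that between the unexposed days, 0.88, which also passed. Cyp1a1, an enzyme induced through the aryl hydrocarbon receptor, changed by 0.82 ± 0.15 in exposed mice (adjusted p = 0.00308) and by -0.91 between the unexposed days (adjusted p = 0.0263), while its dimmer second probe set changed by -0.24 in exposed mice. Gm9706 was at 4.71, 4.89 and 5.18 in day 41 mice, against 5.31, 5.78 and 6.02 in day 34 mice (change -0.82 ± 0.11, adjusted p = 2.94e-05) and did not overlap.

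Between unexposed day 41 and unexposed day 34, 201 genes passed (2.44%), 118 higher (1.43%) and 83 lower (1.01%). Of these, 5 also passed in exposed mice, which is 6.58% of the exposed calls and 2.49% of the unexposed calls: Arsa, Cirbp, Cyp1a1, Ighv14-2 and Mrpl18. Without arrays with squamous transcripts, which leaves 1 unexposed day 34 mouse assumed to vary like the others, 5 genes passed in the unexposed comparison, and with the squamous score or the Gapdh ratio as a covariate 1 and 2 passed.

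The change between days itself differed between exposed and unexposed mice for 9 genes (0.109%), 4 with a positive difference (0.0485%) and 5 with a negative one (0.0606%). Ighv1-54 (difference 3.01 ± 0.58, adjusted p = 0.0213) changed by 3.06 in exposed and by 0.051 in unexposed mice. Igtp (-1.38 ± 0.28, adjusted p = 0.0267), Ifi47, another interferon-inducible GTPase (-1.11 ± 0.23, adjusted p = 0.0422), and Serpina3n (-1.07 ± 0.21, adjusted p = 0.0213), in that order, passed as lower at day 41 in exposed mice, whereas the unexposed changes were 0.56, 0.54 and 0.50 and did not pass. The remaining 5 were Cyp1a1, Cry1, Lcn2, Ppie and Defa35. Cry1 changed by -0.19 in exposed and by -1.12 in unexposed mice, and Lcn2 by -0.30 and 1.51, in that order. For both genes the change in exposed mice did not pass and was smaller than that in unexposed mice. Their dimmer probe sets gave differences of 0.43 and -0.030 for Cry1 and 0.34 for Lcn2, which did not pass. In the same setting without squamous arrays, Ighv1-54 gave 2.89 (adjusted p = 0.612), Igtp -1.10 (adjusted p = 0.688) and Cyp1a1 2.02 (adjusted p = 0.00479), and 4 genes passed in all. For Igha, with a change of 1.96 in exposed and 0.17 in unexposed mice, the difference of 1.80 ± 0.46 did not pass (adjusted p = 0.129), nor did that of Saa3 (-2.14 ± 0.59, adjusted p = 0.185).

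Mice of 1 day also differed among themselves. The correlation between genes over the 10 mice of a day is given as Pearson's r; all genes of a mouse share its array. Over all pairs of the 8251 genes, the median r was 0.005 at day 41 and 0.006 at day 34. Genes that passed between the days were correlated within each day by group. For the 11 called antibody segments the median r was 0.357 at day 41 and 0.741 at day 34, where mouse 10 was high in several of them. Many of these segments were read by probe sets designed for families of similar sequences. Such probe sets may read the same transcripts, and how far this raises r was not tested. For the 10 called interferon-gamma genes it was 0.609 at day 41 and 0.648 at day 34, and for the 5 called cell cycle genes 0.777 and 0.785 at the same days. The called genes of the monocyte list had a median r of 0.222 at day 41 and 0.514 at day 34, and the 3 called goblet genes 0.299 and 0.517. In the 7 day 34 mice without squamous transcripts these medians lay between 0.546 and 0.838. Over whole lists, called or not, the median r of the 28 interferon-gamma genes was 0.338 at day 41 and 0.249 at day 34. For the 44 cell cycle genes it was 0.444 and 0.234, for the 21 goblet genes 0.134 and 0.265, and for all 20 segments 0.364 and 0.542.

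Between these groups of called genes the pattern was uneven. Antibody segments were nearly unrelated to the other groups at day 34, with median r of 0.034 against the interferon-gamma genes, 0.065 against the monocyte list, -0.118 against the goblet genes and 0.165 against the cell cycle genes. At day 41 the same medians were -0.202, -0.306, 0.023 and -0.269. The interferon-gamma and cell cycle genes were positively related within both days (0.533 at day 41 and 0.566 at day 34), as were the monocyte list and cell cycle genes (0.406 and 0.664). These medians are descriptions with no test.

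To test single relations, 12 genes that stand for different processes were paired in all ways within each day, which gave 132 relations, and 2 passed after adjustment over all of them (1.52%). At day 34, Saa3 and Mki67 varied together over the 10 mice (r = 0.904, permutation p = 0.00026, adjusted p = 0.0337; Spearman's rho = 0.939, permutation p = 0.00025, adjusted p = 0.0330). At day 41 the same pair had r = 0.608 (adjusted p = 0.435), and the difference between days was not tested. Without the 2 mice farthest from the median of Saa3, r at day 34 was 0.794, and in the 7 mice without squamous transcripts it was 0.956 with an adjusted permutation p of 0.109.

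At day 41, Saa3 and Cxcl9 were the other pair (r = 0.912, permutation p = 0.00051, adjusted p = 0.0337), although by rank the adjusted p was 0.107 (rho = 0.879, permutation p = 0.00162). Without the 2 farthest mice r was 0.853, and at day 34 it was 0.191 (adjusted p = 0.850). Igha and Cxcl9 did not pass on either day, with r of -0.498 at day 41 (adjusted p = 0.530) and -0.076 at day 34 (adjusted p = 0.968). After leaving out the 2 farthest mice, 0 of 132 relations passed by permutation, and 12 had an unadjusted p under 0.05.

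For each of the 12 genes, the 20 genes closest to it on 1 day were then read on the other day. Of 240 such relations chosen at day 34 and read at day 41, 5 passed (2.08%), and of 240 chosen at day 41 and read at day 34, 5 passed (2.08%). Of those that passed by r, all but 1 involved H2-Ab1, an MHC class II chain of antigen-presenting cells. By rank 2 passed each way. Of the 2 chosen at day 41, 1 involved H2-Ab1 and 1 involved Clca1.

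H2-Ab1 itself did not pass between days (change -0.15 ± 0.14, adjusted p = 0.773), at 10.15, 10.46 and 10.92 in day 41 mice and 10.25, 10.47 and 11.13 in day 34 mice. Its partner C1qc, a chain of the complement protein C1q made by macrophages, had r = 0.937 at day 41 (permutation p = 0.00010, adjusted p = 0.0240) and 0.922 at day 34 (permutation p = 0.00033, adjusted p = 0.0318). Without the 2 mice farthest from the median of H2-Ab1, r was 0.868 at day 41 and 0.869 at day 34. By rank the adjusted p for C1qc was 0.0420 at day 41 and 0.0918 at day 34.

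Mmp12, a macrophage elastase, had r = 0.864 with H2-Ab1 at day 41 (adjusted p = 0.0437) and 0.930 at day 34 (adjusted p = 0.0168), and passed by rank on both days (adjusted p = 0.0420 at day 41 and 0.0360 at day 34). Cyba, a subunit of the phagocyte oxidase, and H2-Eb1, another class II chain, passed both ways by r but not by rank. C1qb passed in the reading at day 34 (r = 0.910, adjusted p = 0.0350). The remaining relation that passed by r was Igha with Igkv14-111 at day 41 (r = 0.919, permutation p = 0.00057, adjusted p = 0.0342; rho = 0.721, adjusted p = 0.281), with r = 0.839 at day 34, and without the 2 farthest mice r at day 41 was 0.787.

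**Figure D4:**
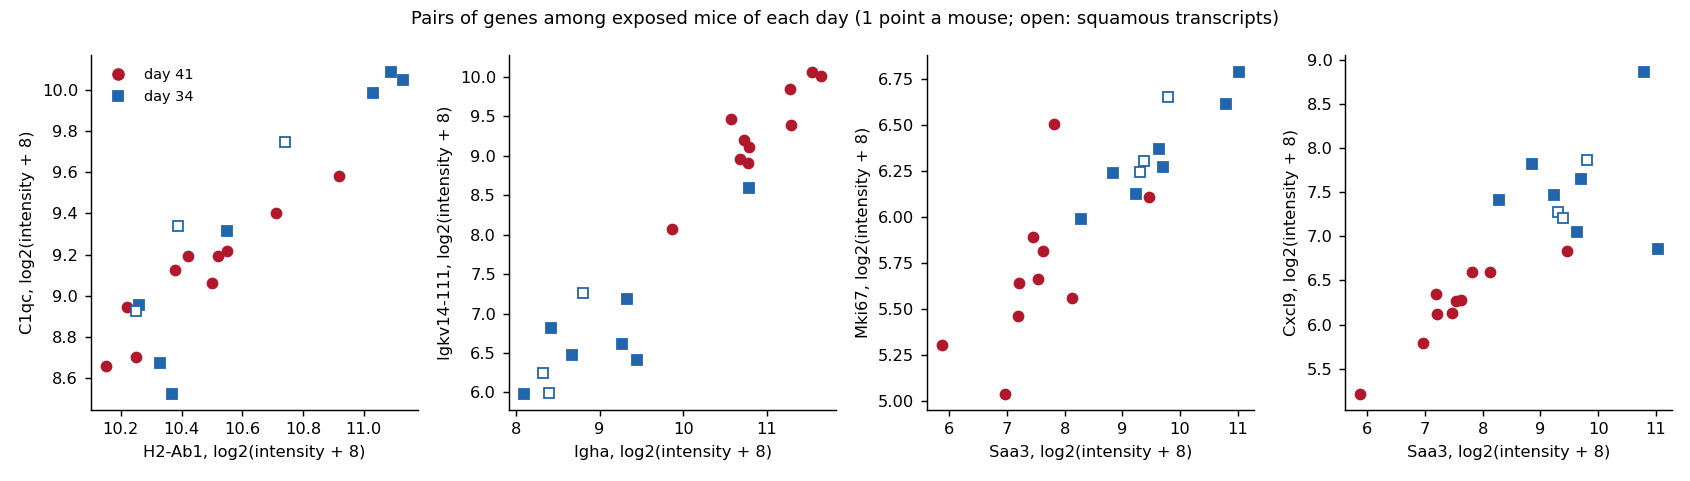
Pairs of genes among exposed mice, 1 point per mouse, day 41 as red circles and day 34 as blue squares, both axes log2(intensity + 8), open squares for arrays with squamous transcripts. H2-Ab1 and C1qc lie along 1 line in both days, Igha and Igkv14-111 are separated by day with 1 day 34 mouse near the day 41 mice, and Saa3 follows Mki67 at day 34 and Cxcl9 at day 41.

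By a fixed rule, the genes most like an anchor were those whose lower r of the 2 days was highest. For Clca1 these were led by Glrx (r = 0.779 at day 41 and 0.826 at day 34), Fcgbp (0.910 and 0.770), Alox15 (0.768 and 0.815), Pglyrp1 (0.741 and 0.795) and Pigr (0.843 and 0.738). For Saa3 they were led by the neutrophil chemokine Cxcl1 (0.793 and 0.891), Acod1 (0.756 and 0.869) and Rrm1 (0.747 and 0.759). For Igha they were Igkv14-111, Igkv6-23 (0.792 and 0.896) and Igkv4-59 (0.763 and 0.851), followed by Map7d1 and Atp11a. For Cxcl9 the closest was Cxcl10 (0.678 and 0.800), followed by Smarce1, Prph, Rfc4 and Cdc45. For Cd3e it was Pdrg1 (0.782 and 0.692) and for Ccl8 it was Cdk5r1 (0.699 and 0.846). These genes were picked by their values and are given without a test.

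**Figure D5:**
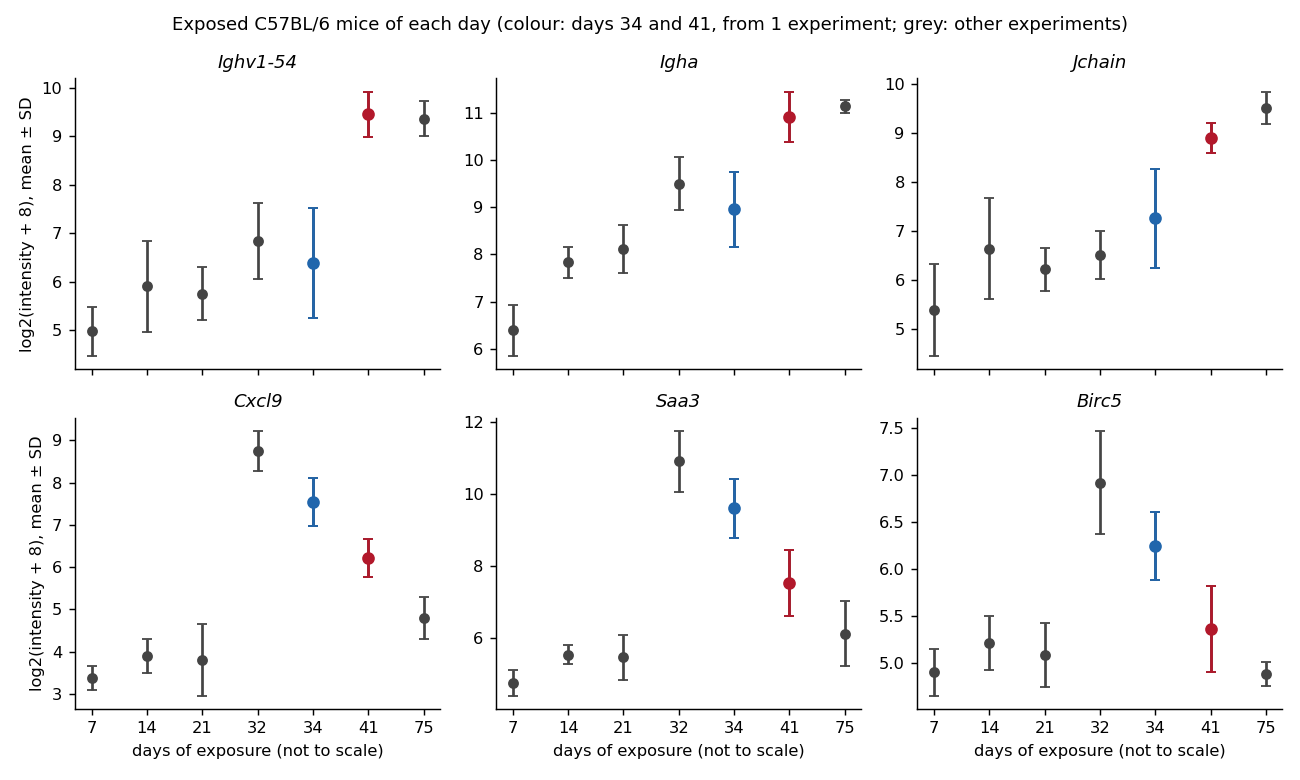
Mean ± SD of log2(intensity + 8) of 6 genes in exposed C57BL/6 mice at days 7, 14, 21, 32, 34, 41 and 75 (days spaced evenly, not to scale), with days 34 and 41 in colour and the other days, which come from other experiments or have no experiment stated, in grey. Ighv1-54, Igha and Jchain are at their upper levels at days 41 and 75, whereas Cxcl9, Saa3 and Birc5 are highest at day 32 and lower at each later day shown.

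Exposed mice of the other days, which come from other experiments or have no experiment stated, are set beside days 34 and 41 without a test. Igha averaged 8.11 ± 0.51 at day 21 (SD, n = 6), 9.49 ± 0.56 at day 32 (n = 3), 8.95 ± 0.79 at day 34 (n = 10), 10.91 ± 0.53 at day 41 (n = 10) and 11.13 ± 0.13 at day 75 (n = 3). Cxcl9 averaged 3.81 ± 0.85, 8.75 ± 0.47, 7.54 ± 0.56, 6.22 ± 0.46 and 4.79 ± 0.50 at the same days. Clca1 averaged 6.26 ± 1.58, 11.57 ± 0.16, 11.62 ± 0.49, 9.92 ± 1.03 and 6.35 ± 2.32, with mice of day 75 far apart from each other.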

How the data were processed

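Lung RNA was labelled with biotin and put on single-colour Affymetrix arrays, per the labels. The authors deposited linear intensity values, 1 for each probe set and array (12487 probe sets). The steps that made these intensities are not given in the sources used here. Their trimmed means, 100.05 to 100.07, were almost the same on every array. The deposited values were used as log2(intensity + 8) with no further normalization. The platform annotation, which can be old, paired 10855 probe sets with 1 symbol. Another 396 had more than 1 symbol, and 1236 had none. The brightest probe set stood for each of 8251 genes, and 2072 genes had more than 1.

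All 30 arrays of the experiment entered 1 limma model (version 3.58.1, R 4.3.3), with Benjamini-Hochberg adjustment at 0.05. Two-sided correlation tests drew 100000 permutations of mice (Python 3.11.15, scipy 1.17.1, numpy 2.4.6, pandas 2.3.3; plots with matplotlib 3.10.9). On simulated data with 50 genes per size, limma found 30, 47, 49 and 50 genes at log2 changes of 0.5, 1, 1.5 and 2. It made 10 false calls among 8051 unchanged genes. The simulated noise was normal and independent between genes, with no cage effect and no tissue transcripts that move with the day. These counts are therefore not the error rate of the real calls. There were 0 pairs of identical arrays, and exposed arrays of 1 day correlated at 0.941 to 0.982.

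The comparison, the gene lists and the 12 genes for correlations were chosen with earlier results of these data known. By rule the names were drawn from those 12 and from called genes above median brightness with the 12 largest changes each way. Up to 3 called genes per list (or the 1 of smallest p) and called differences between exposed and unexposed changes were added. So were the 5 closest genes to each of the 12. Not every gene that the rule gives is named above. Chil3 and Rsad2 of the 12 did not pass between the exposed days. Igkv10-96 (change 1.82) and Ighv5-12 (change 1.15) passed as higher. The closest genes are listed for some of the 12 only. Genes without overlap or called in both comparisons are named because they are few. Gbp2, Gbp3, Irgm2, AW112010, Ccl12, Smc2, Igkv1-135, Igk, Ifng, Il4, Il13, Cxcr3, Muc5ac, Xbp1, Prdm1, Sdc1, S100a8 and Mpo were added after their values were seen. Alternatives were offsets of 2 and 32, a filter on dim genes, quantile normalization, the mean of all probe sets, fits on 20 or 95 arrays, the replicate number as a block, covariates or left-out arrays for tissue transcripts and Gapdh ratio, and each array left out. For the comparison of exposed mice, only exposed arrays were left out in turn. An array counted as having squamous transcripts where the mean log2 level of the keratins Krt4 and Krt13 exceeded 7, and skeletal muscle transcripts where that of its list exceeded 6.5. The number of arrays limits the precision.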

Additional observations from a re-analysis of the deposited data

Results flagged for a closer look

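A single mouse far from the rest of its group, by Dixon's criterion at 95%, was found in 13 of 184 groups of 46 genes (7.07%); chance gives about 1 in 20. Among exposed mice of day 41, mouse 8 was low for Birc5 (4.38, the others 5.15 to 5.95). Among exposed mice of day 34, mouse 10 was high for Igha (10.78, the others 8.09 to 9.45) and Igkv14-111 (8.59, the others 5.98 to 7.27), mouse 9 for Cxcl9 (8.86, the others 6.86 to 7.86) and mouse 4 for Serpina3n (9.38, the others 8.20 to 8.72). Among unexposed mice of day 41, mouse 3 was high for Igkv14-111 (7.72), Igkv9-120 (7.21) and Igkv6-14 (7.87), and mouse 1 for Cxcl9 (6.67, the others 3.25 to 3.66). Among unexposed mice of day 34, mouse 3 was low for Ccl8 (4.42), mouse 1 low for Irgm2 (7.36) and high for Dbp (4.63), and mouse 2 low for Agr2 (3.30).

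The change between the days differed between exposed and unexposed mice for 9 genes by limma's test of the difference. The positive differences were Ighv1-54 (3.01), Cyp1a1 (1.74, adjusted p = 0.000626), Defa35, an alpha-defensin (1.60, adjusted p = 0.0213), and Cry1, a repressor of the circadian clock (0.92, adjusted p = 0.000141). The negative ones were Lcn2, a siderophore-binding protein (-1.81, adjusted p = 0.0387), Igtp (-1.38), Ppie, a peptidyl-prolyl isomerase (-1.14, adjusted p = 0.0192), Ifi47 (-1.11) and Serpina3n (-1.07). Of these 9, only Cyp1a1 passed without arrays with squamous transcripts, where 1 unexposed day 34 mouse was left.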

How the results depend on the processing

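Of the 76 genes that passed between exposed day 41 and exposed day 34, 10 passed under every alternative that tested them: Ighv1-54, Igkv14-111, Igkv9-120, Igkv1-135, Igha, Ccl2, Ccl7, Cirbp, AW112010 and Gm9706. Of these 10, Igkv1-135, Ccl7 and Gm9706 were removed by the filter on dim genes and were not tested in that setting. The count of 76 was 177 with all 95 arrays in 1 model, 36 with the squamous score as a covariate, 27 with the squamous and skeletal muscle scores, and 38 without arrays with squamous transcripts. In settings chosen after seeing the data it was 27 with the heart muscle score and 16 without arrays with squamous or skeletal muscle transcripts. Leaving out 1 mouse gave 40 to 132 genes; the count moved by over 1.5 times without day 34 mouse 3 (118), 4 (42), 5 (132), 6 (48), 8 (45) or 9 (40) and without day 41 mouse 1 (42), 2 (46), 8 (43) or 9 (48). Among unexposed mice the 201 genes became 812 with all 95 arrays, 1 with the squamous score and 1 with both scores, 5 without squamous arrays, 2 with the Gapdh ratio as a covariate, 4 without squamous or skeletal muscle arrays, and 19 to 916 when 1 mouse was left out. The 9 genes whose change differed between exposed and unexposed mice became 5 when the probe sets of a gene were averaged, 178 with all 95 arrays, 4 with the squamous score, 4 without squamous arrays, 2 with the Gapdh ratio, 3 with the heart score, 4 without squamous or skeletal muscle arrays, 26 without exposed arrays with a Gapdh ratio above 2, and 3 to 105 when 1 mouse was left out (105 without unexposed day 34 mouse 5). The 2 correlated pairs became 1 by rank, 0 without squamous arrays and 0 without the 2 farthest mice. No exposed day 41 array held squamous transcripts, so r of Saa3 and Cxcl9 at day 41 stayed at 0.912 in that setting. Only its adjusted permutation p moved, from 0.0337 to 0.0673, because the adjustment spans the relations of both days. Myh11, which did not pass, had a change of -0.15 that turned to 0.015 with the heart score and 0.037 without squamous or skeletal muscle arrays. The cause of the other shifts was not tested. With the replicate number as a block 52 genes passed in exposed mice, 110 in unexposed mice and 6 for the difference. The numbers did not pair the mice: same-numbered mice had r of -0.233 to 0.108, and 1 of 10 was closest to its own number. Cages are unknown, and many calls rest on few mice.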
